A study of Mus musculus with 4 samples.

Results

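The genes described here, 15 of the 23756 in the table, were higher without interleukin 3 (IL-3) in every library. They were selected on their measured values: a gene had to reach 5 CPM (the count divided by the library total and multiplied by 1000000) in both libraries without IL-3, and its lower CPM there had to be at least 4 times the higher CPM with IL-3 after 0.05 CPM was added to the latter. This quotient is called the ratio below. The rule was met by 25 genes (0.105% of the table), of which 10 stefin A, S100A and other neutrophil genes, including Ltf and Ly6g, were left out by name. In the opposite direction, 46 genes (0.194%) met the mirrored rule. Because the same libraries chose the genes, their higher level without IL-3 is a description and carries no test.

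The cells were 32Dcl3, a mouse line that needs IL-3 for growth, and Abl1 had been edited with CRISPR/Cas9 in all of them, including the control libraries. The Abl1ko/IL3+ group (2 libraries) was grown with IL-3 and the Abl1ko/IL3- group (2 libraries) without it. The study calls the Abl1ko/IL3- cells IL-3-independent, and such cells arose in its cultures when IL-3 was gradually withdrawn. A response to the lack of IL-3 and the outgrowth of such cells cannot be told apart in these libraries. The study selected infected cells with puromycin, then picked single clones. It also describes IL-3-independent populations that came from separate guide RNAs. No clone or population was tied to a library, so clone and condition cannot be told apart. Nothing states that replicates came from separate cultures. Cells with intact Abl1 were not analysed here. Totals ran from 48953174 to 60382588 counts, at which 3 counts equal 0.0497 to 0.0613 CPM (counting error only). Abl1 itself had 1322 to 2256 counts in each library, and its edits cannot be read from these counts. The labels name the cells pre-B cells, but the pre-B marker list summed to only 20.1 to 24.2 CPM, whereas granulocyte progenitor markers summed to 4261 and 2935 CPM with IL-3 against 2522 and 2411 CPM without it, with 3 of 10 markers below both Abl1ko/IL3+ libraries and 0 above. The progenitor difference rested on Mpo (2030 and 1330 against 888 and 524 CPM), and the sum of the other progenitor markers overlapped between the groups. Eosinophil markers (3367 and 3292 against 1638 and 1220 CPM) and T and NK cell markers (193 and 213 against 88.8 and 85.9 CPM) also summed lower in both libraries without IL-3. Of the 6 eosinophil markers that reached 1 CPM, 2 were below and 1 above, and Prg2 had 42.9 and 1858 CPM in the Abl1ko/IL3+ replicates. Over all genes that reached 1 CPM in a library, 16.3% were below and 20.4% above. The T and NK sum was nearly all Nkg7 (187 and 205 against 81.26 and 74.95 CPM), while Cd3d and Cd3g were above, at 3.07 CPM or less. Erythroid and megakaryocyte markers (1115 to 11180 CPM) and mast cell and basophil markers (798 to 3446 CPM) summed as high but overlapped between the groups. Neutrophil markers summed to 2937 and 1433 CPM with IL-3 and 1771 and 3844 CPM without it, and monocyte and macrophage markers to 384 and 86.6 CPM against 179 and 778 CPM. The last 2 sums overlapped as well, but the neutrophil list does not hold the stefin A, S100A, Ltf and Ly6g genes that met the rule. No member was on any marker list, and the part of these cells in the results was not tested.

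IL-3 is a cytokine that binds a receptor with the shared beta chain, activates JAK2 and STAT5 and keeps early myeloid cells alive and dividing. Parental 32Dcl3 cells die without it. The genes below belong to several processes: sugar and nucleotide metabolism, transport of cystine and zinc, cytokine and receptor signalling, and transcription.

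Some of the 15 genes have a sequence that is nearly their own, and others share much of it with another annotated gene. To separate them, each member's transcripts in GENCODE release M21 were cut into all their words of 50 bases, and every word was looked up, on either strand, in the transcripts of all other genes. More than 50% of the words occurred in another gene for 5 of the 15 members (33.3%), against 675 of the 9821 genes that reached 5 CPM in both Abl1ko/IL3- libraries (6.87%). At least 5% of the words did so for 8 of 15 members (53.3%) and for 33.2% of those 9821 genes. These shares are descriptions of the gene models. How the counting treated reads that fit more than 1 gene is not given in the sources used here.

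**Figure D1:**
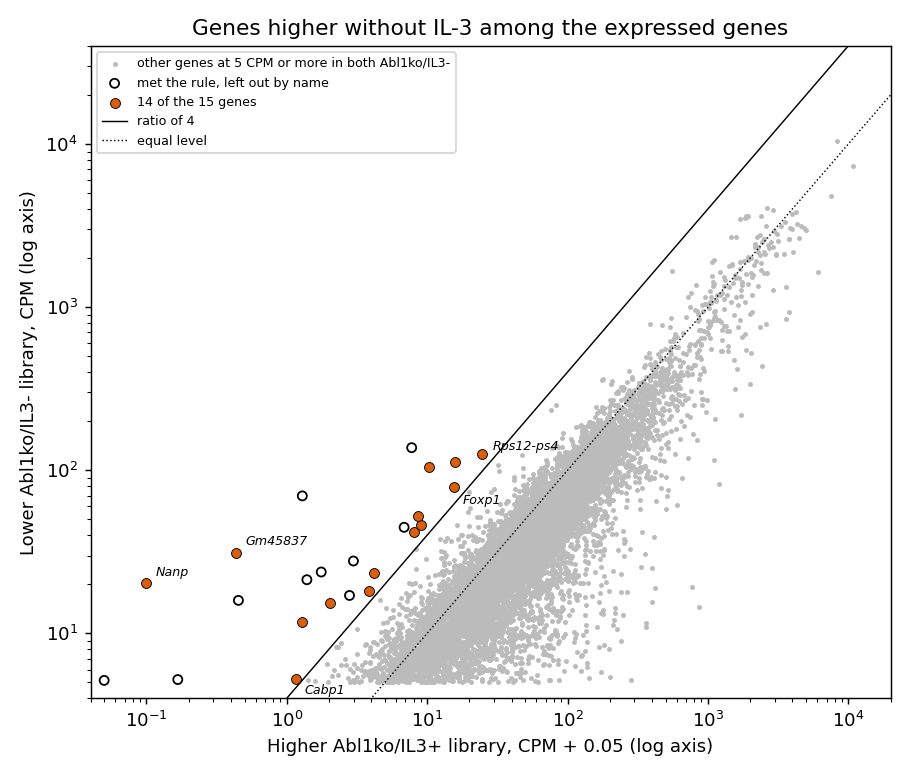
Each point is 1 gene, with its higher Abl1ko/IL3+ level plus 0.05 on the horizontal axis and its lower Abl1ko/IL3- level on the vertical axis, both in CPM on log axes. The filled points are 14 of the 15 genes and lie above the line for a ratio of 4, from Cabp1 at a ratio of 4.51 to Nanp at 204.6. The open circles are the 10 genes left out by name.

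Nanp (ENSMUSG00000053916, chr2:151029685-151039398, minus strand, GRCm38) shows why the sequence matters. It encodes the phosphatase that releases free N-acetylneuraminic acid, the common sialic acid, from its phosphorylated precursor. The processed pseudogene Gm6741 on chromosome 17 has a transcript of 747 bases that is identical, over its whole length, to positions 73 to 819 of the 1394-base transcript Nanp-201. The start of that run is printed because a read inside it fits both genes equally well. It is the first 120 bases, chr17:91236811-91236930 on the plus strand of GRCm38, with the start codon in capitals.
Gm6741 and Nanp: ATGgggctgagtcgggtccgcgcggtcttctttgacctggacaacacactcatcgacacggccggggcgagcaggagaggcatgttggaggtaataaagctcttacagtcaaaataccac

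The promoters of Slc7a11 and Ak4 are printed as examples of a member with a C/EBP-ATF element and of a member with an E-box, chosen after the matches were seen. RefSeq promoters of GRCm38 were matched for 10 of the 15 members (17 promoters), and 9 short motifs were searched on both strands. Slc7a11 held 2 matches to the C/EBP-ATF element TGATGNAA, the letters to which ATF4 is known to bind together with a C/EBP partner, and was the only member of the 10 with a match. Of all 32851 promoters of the same length, 3.97% held it. The 250 bases before the Slc7a11 start, chr3:50443614-50443863 on the minus strand, are given with both matches in capitals, 1 on each strand.
Slc7a11: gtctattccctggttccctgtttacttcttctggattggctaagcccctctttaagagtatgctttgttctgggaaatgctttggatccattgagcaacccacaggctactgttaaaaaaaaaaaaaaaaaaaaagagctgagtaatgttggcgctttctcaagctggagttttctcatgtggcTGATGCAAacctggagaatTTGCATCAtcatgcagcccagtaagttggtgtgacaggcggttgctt
One of the 4 Ak4 promoters, chr4:101419453-101419702 on the plus strand before its start, held the E-box CACGTG, which contains the hypoxia response core ACGTG and is shown in capitals. The E-box was in 7.15% and the core in 19.6% of all promoters.
Ak4: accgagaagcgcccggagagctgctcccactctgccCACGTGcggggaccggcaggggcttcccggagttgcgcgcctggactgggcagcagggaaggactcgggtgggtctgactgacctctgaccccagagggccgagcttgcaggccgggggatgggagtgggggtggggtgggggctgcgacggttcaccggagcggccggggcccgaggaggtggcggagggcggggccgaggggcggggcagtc
Over the 10 members, ACGTG was found in Ak4 and Zc3h11a, the STAT motif TTCNNNGAA in Il1f9 and Slc7a11 (8.3% of all promoters), the core TGACG of the CREB element in Foxp1 and Zc3h11a (20.8%), the AP-1 motif TGANTCA in Zfp239 (7.81%) and CCAAT in 5 members (37.4%). The antioxidant response core TGACNNNGC was found in none of the 10 (12.4% of all promoters), which says only that these letters are not in these windows. TATAAA was found in Zfp239 alone (13.6%). No motif was present in more than 5 of the 10. A member counted if any of its promoters held the motif, whereas the percentages are per single promoter, so the units are unlike. Per promoter, CCAAT was in 7 of the 17.

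Slc7a11 (ENSMUSG00000027737) encodes xCT, the light chain of the exchanger that imports cystine and exports glutamate. Its level was 8.98 and 7.62 CPM in the Abl1ko/IL3+ libraries and 46.4 and 100.9 CPM in the Abl1ko/IL3- libraries, a ratio of 5.13. Of the 15 genes it differed most between the Abl1ko/IL3- replicates, by 2.18-fold. Only 1.47% of its words occurred in other genes. Its heavy chain partner Slc3a2 had 251 and 232 CPM with IL-3 and 162 and 235 CPM without it, so the groups overlapped. Of the 11 other genes of cystine import and glutathione metabolism, only Srxn1, which encodes sulfiredoxin, was above both Abl1ko/IL3+ libraries in both Abl1ko/IL3- libraries, at 103 and 134 CPM against 19.9 and 64.9 CPM, and none was below. Over the 13970 genes that reached 1 CPM in a library, 20.4% were above both and 16.3% were below both. Among the 9 measured genes of the ATF4 response, 4 were above and 3 below. Those above included Atf4 itself (129 and 247 CPM with IL-3, 378 and 322 CPM without it), Ddit3 (20.5 and 26.5 against 56.1 and 64.0 CPM), which encodes the stress factor CHOP, and the pseudokinase gene Trib3 (6.71 and 20.9 against 40.2 and 47.5 CPM). The 3 below were the serine and asparagine synthesis genes Phgdh (233 and 670 against 210 and 186 CPM) and Asns (168 and 234 against 135 and 148 CPM), and the amino acid transporter gene Slc7a5 (117 and 125 against 78.3 and 74.9 CPM). None of these companion genes met the rule.

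Ak4 (ENSMUSG00000028527, chr4:101419277-101466995) encodes an adenylate kinase of the mitochondrial matrix and is a known target of hypoxia-inducible factor. It had 15.8 and 2.27 CPM with IL-3 and 113 and 157 CPM without it, a ratio of 7.13, and the Abl1ko/IL3+ replicates differed by 6.97-fold. A pseudogene copy, Ak3l2-ps, held 10.2% of its words and had 169, 21, 4 and 28 counts in Abl1ko/IL3+ replicates 1 and 2 and Abl1ko/IL3- replicates 1 and 2. With those counts added, the ratio was 6.06. No other adenylate kinase was above both Abl1ko/IL3+ libraries, and of the 5 that reached 1 CPM, 3 were below, among them Ak6 (130 and 150 against 88.0 and 117 CPM) and Ak8, at 1.47 CPM or less. Of 10 genes of the hypoxia response, 3 were above both Abl1ko/IL3+ libraries and none below. These were the glucose transporter gene Slc2a1 (48.4 and 41.6 against 92.8 and 199 CPM), Ankrd37 (4.59 and 4.34 against 15.9 and 38.9 CPM) and Car9 (14.6 and 11.8 against 16.2 and 17.6 CPM), which encodes a carbonic anhydrase. Pgk1, Ldha, Bnip3, Egln3, Ndrg1, Pdk1 and Vegfa overlapped between the groups. Among all 13970 genes that reached 1 CPM in a library, 20.4% were above both and 16.3% below both. A part of hypoxia was not tested.

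Slc39a9 (ENSMUSG00000048833) encodes a zinc transporter of the ZIP family and held the median ratio of the 15, 6.06. Its levels were 8.55 and 2.55 CPM with IL-3 and 52.1 and 53.8 CPM without it. Its end runs into Erh on the opposite strand, with 459 shared exon bases (4.52% of its exons). Erh was far more abundant, with 7350 and 14545 counts with IL-3 against 14480 and 12486 without it, and the sum of both genes had a ratio of 1.15. Whether counting used strand is not given in the sources used here, so reads of the overlap cannot be told apart. Of the other 12 zinc importer and metallothionein genes that reached 1 CPM, 3 were above and 3 below. The shares over all genes that reached 1 CPM were 20.4% above and 16.3% below. The metallothioneins Mt1 (901 and 1335 against 1463 and 2077 CPM) and Mt2 (477 and 902 against 1032 and 1329 CPM) were above, and Slc39a8 was below (198 and 65.0 against 8.03 and 37.7 CPM).

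Nanp, with the largest ratio of the 15 (204.6), had 0 and 3 counts with IL-3 against 1006 and 1128 counts without it, the latter equal to 20.6 and 20.4 CPM. Set against the library with 3 counts and with nothing added, the fold was 410, with a 95% counting interval of 140 to 1990. The copy Gm6741 went the other way, with 589 and 306 counts with IL-3 against 115 and 262 without it. Together with Gm6741 and the overlapping Ninl, the level was 9.87 and 5.12 CPM with IL-3 and 22.9 and 25.2 CPM without it. The sum was thus still above both Abl1ko/IL3+ libraries in both Abl1ko/IL3- libraries, at a ratio of 2.31, below the 4 of the rule. Of 5 other genes of sialic acid metabolism and transport, 1 was above both Abl1ko/IL3+ libraries and 2 were below. Over all genes that reached 1 CPM in a library, these shares were 20.4% and 16.3%. Gne, the first enzyme of the pathway, overlapped between the groups (39.8 and 24.8 against 13.7 and 27.4 CPM), Nans, the synthase that makes the substrate of NANP, was below (82.5 and 122 against 76.1 and 70.3 CPM), and so was the lyase gene Npl (113 and 59.4 against 20.6 and 37.0 CPM). The transporter gene Slc35a1 alone was above (20.1 and 15.3 against 22.9 and 24.4 CPM), and Cmas overlapped (94.9 and 172 against 124 and 141 CPM).

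**Figure D2:**
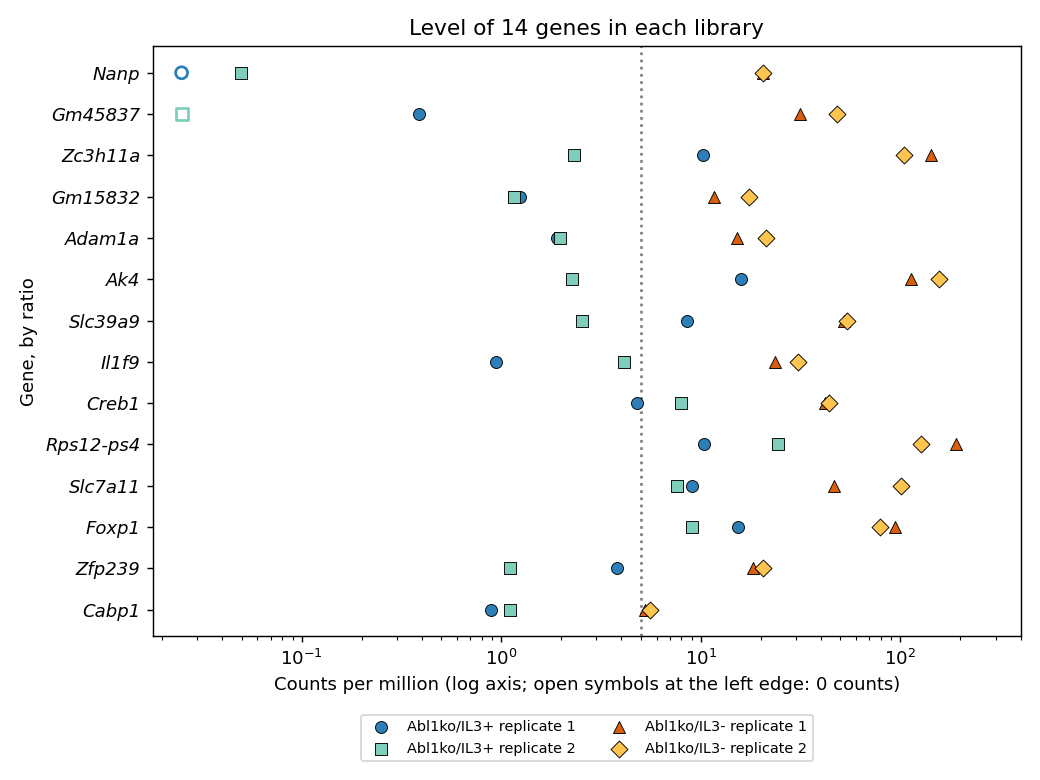
The level of 14 of the 15 genes in CPM on a log axis, with 1 symbol per library and genes ordered by ratio. In every gene shown both Abl1ko/IL3- symbols lie to the right of both Abl1ko/IL3+ symbols, which the rule requires. Open symbols stand for 0 counts, in Nanp and Gm45837, and the dotted line is the floor of 5 CPM.

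Signalling genes made up a second group. Il1f9 (ENSMUSG00000044103, chr2:24186476-24193568) encodes interleukin 36 gamma, a cytokine of the interleukin 1 family. It had 0.939 and 4.12 CPM with IL-3 and 23.6 and 30.7 CPM without it, a ratio of 5.66. Il1rl2, the ligand-binding chain of its receptor, had 0 CPM in 3 libraries and 0.361 CPM in Abl1ko/IL3- replicate 2. The accessory chain gene Il1rap was present but overlapped between the groups (17.7 and 4.26 against 5.78 and 10.5 CPM). The related ligand gene Il1f6 was at 0 CPM in each library with IL-3 and at 0.163 and 0.994 CPM without it. Il1b overlapped (23.4 and 0.712 against 6.76 and 17.3 CPM), and the receptor antagonist gene Il1rn was above, mostly in replicate 2 (0.603 and 0.0994 against 0.694 and 6.35 CPM).

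Cabp1 (ENSMUSG00000029544), a calcium-binding protein gene known mainly from neurons, lay just inside both limits of the rule, at 0.888 and 1.11 CPM against 5.23 and 5.59 CPM and a ratio of 4.51. It shared no word with any other gene. Its relatives Cabp4 and Cabp7 were at 0.416 CPM or less in every library.

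Creb1 and Foxp1 are transcription factor genes with long transcripts of their own. CREB1 binds cyclic AMP response elements and is activated by phosphorylation. FOXP1 is a forkhead transcriptional repressor with a part in lymphoid and myeloid development. Creb1 (ENSMUSG00000025958) had 4.79 and 7.97 CPM with IL-3 and 42.1 and 43.7 CPM without it, a ratio of 5.25, with 0.244% of its words in other genes. Among 7 relatives and coactivators, 3 were above both Abl1ko/IL3+ libraries, namely Atf1 (132 and 73.5 against 134 and 156 CPM), Crebbp (37.8 and 31.0 against 46.2 and 45.0 CPM) and Crem (6.79 and 7.05 against 9.46 and 8.68 CPM). Crtc1 and Crtc3 were below. Atf1 was above only narrowly, at 134 CPM in Abl1ko/IL3- replicate 1 against 132 CPM in Abl1ko/IL3+ replicate 1. Of all genes that reached 1 CPM, 20.4% were above and 16.3% below. Foxp1 (ENSMUSG00000030067) had 15.4 and 9.06 CPM with IL-3 and 93.6 and 78.7 CPM without it, a ratio of 5.09. Foxp4, the only other family member to reach 1 CPM, overlapped between the groups (19.7 and 36.2 against 27.5 and 24.3 CPM). Zfp239 (ENSMUSG00000042097), a zinc finger gene, had 3.81 and 1.11 CPM with IL-3 and 18.3 and 20.4 CPM without it, a ratio of 4.74, and no word of it occurred elsewhere.

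Zc3h11a and Adam1a each overlap a gene model that was lower in both libraries without IL-3. Zc3h11a (ENSMUSG00000102976, chr1:133619862-133661380), whose product binds RNA and takes part in nuclear export of mRNA, had 10.3 and 2.32 CPM with IL-3 and 142 and 105 CPM without it. The overlapping model Gm38394 holds 65.2% of its words and had 12341 and 3955 counts with IL-3 against 2 and 2976 without it. A second model that also bears the name Zc3h11a (ENSMUSG00000116275) held 67.1% of the words and had 8, 0, 0 and 301 counts. The 3 models together had 217 and 67.8 CPM with IL-3 and 142 and 164 CPM without it, so the sum overlapped between the groups, with a ratio of 0.655. Adam1a (ENSMUSG00000072647), which encodes a membrane metalloprotease known from sperm, had 1.91 and 1.97 CPM with IL-3 and 15.3 and 21.3 CPM without it. The overlapping Gm42878 holds 62.8% of its words and ran in the opposite direction, with 274 and 342 counts against 0 and 19 counts. Added to Gm42878 alone, Adam1a had 6.50 and 7.63 CPM against 15.3 and 21.6 CPM, a ratio of 1.99. Added to all 4 genes that hold at least 5% of its words, it had a ratio of 1.16. The larger sum also takes in the counts that Mapkapk5, Tmem116 and Adam1b have outside the shared bases.

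Gm15832 (ENSMUSG00000085894) is a noncoding transcript, and Gm45837 (ENSMUSG00000030653) and Rps12-ps4 (ENSMUSG00000109509) are a model that reaches from Arap1 across Pde2a and a processed pseudogene. Gm15832 had 1.24 and 1.16 CPM with IL-3 and 11.7 and 17.4 CPM without it. It shares 36.9% of its words with Rnf149, a ubiquitin ligase gene with 1636 and 860 counts with IL-3 against 291 and 789 without it. The sum of Gm15832 and Rnf149 overlapped between the groups (28.7 and 15.4 against 17.6 and 31.6 CPM, ratio 0.615). Gm45837 (chr7:101410886-101512819) had 23 and 0 counts with IL-3 against 1530 and 2651 without it. It holds 95.6% of its words in common with Pde2a, a cyclic nucleotide phosphodiesterase gene, which had 0, 19, 8 and 59 counts, so the sum with Pde2a kept a ratio of 72.1. It also shares 103 words (2.52%) with Arap1, which had 6465 and 2818 counts with IL-3 against 3284 and 5234 without it, and with Arap1 included the sum had a ratio of 0.905. Rps12-ps4 had 10.4 and 24.5 CPM with IL-3 and 190 and 127 CPM without it. It shares 87.6% of its words with Rps12, the parent ribosomal protein gene, which had 37294 and 62680 counts with IL-3 against 84286 and 69685 without it. It also lies across Nphs1 on the opposite strand, which had 412 and 1098 counts with IL-3 against 6923 and 1727 without it. The sum of Rps12-ps4 with 17 genes that hold 5% or more of its words had a ratio of 1.15.

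**Figure D3:**
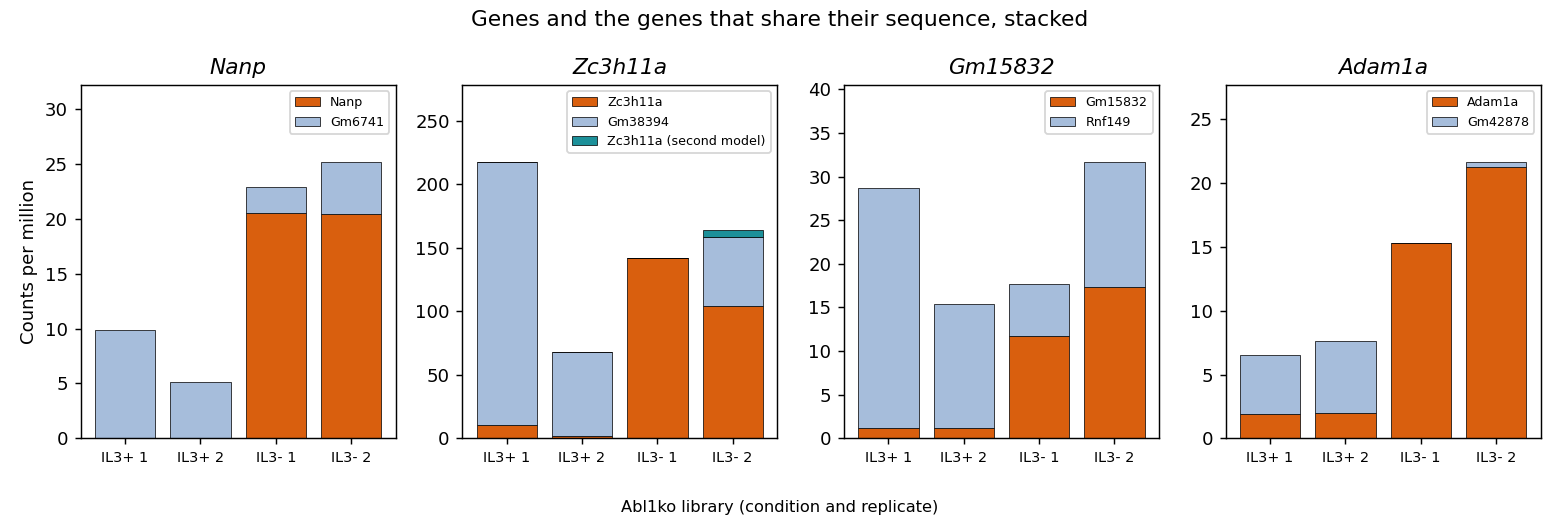
Bars give CPM in each library for Nanp, Zc3h11a, Gm15832 and Adam1a (orange) with the genes that share their sequence stacked on top. In the Abl1ko/IL3+ libraries nearly all of each stack is the other gene, except for Adam1a at 1.91 of 6.50 CPM and 1.97 of 7.63 CPM. The full stacks of Zc3h11a and Gm15832 overlap between the groups and those of Nanp and Adam1a do not.

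Summing each member with every gene that held 5% or more of its words left 10 of the 15 members at a ratio of 4 or more. Those below it were Nanp, Zc3h11a, Gm15832, Adam1a and Rps12-ps4. The other 3 members with such a gene, Gm45837, Ak4 and Il1f9, stayed above it. With a share of 2% or more, 8 members stayed above 4, since Gm45837 and Slc39a9 then fell below. In those sums Arap1 and Erh, and for Rps12-ps4 its copies, hold most of the counts, so these 3 ratios are close to those of the other genes and say little about the member. The part of read assignment in these ratios was not tested, because the reads were not used here. Creb1, Slc7a11, Foxp1, Zfp239 and Cabp1 had at most 2.42% of their words in other genes, so their ratios of 4.51 to 5.25 were the same in all of these sums.

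**Figure D4:**
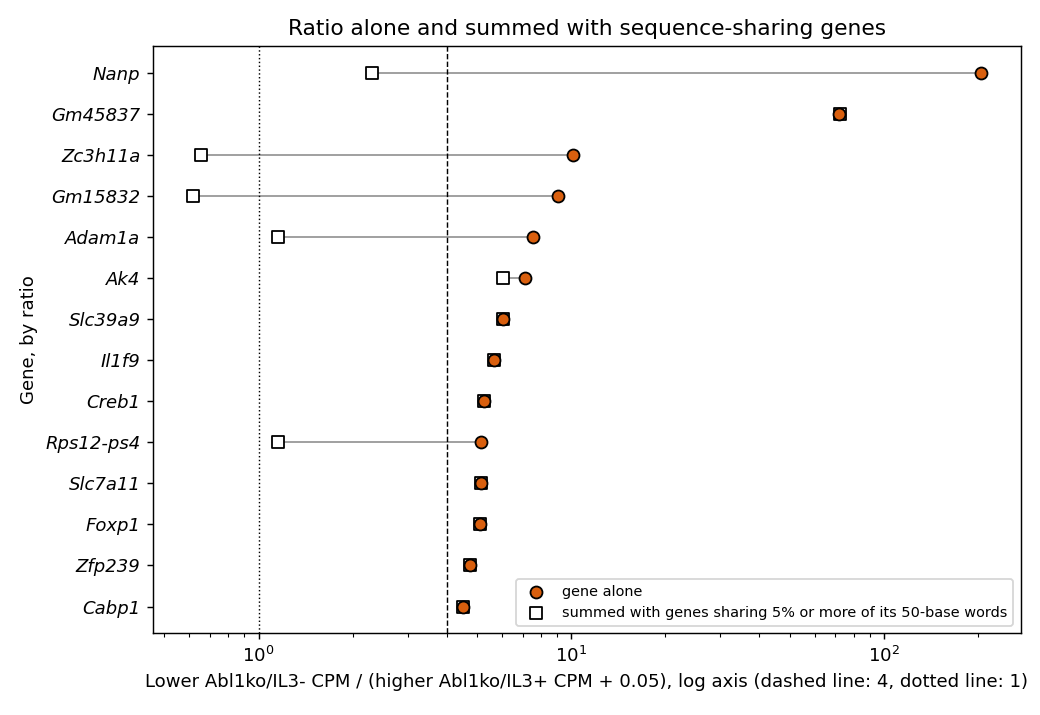
The ratio of 14 of the 15 genes on a log axis, alone (filled circles) and summed with the genes that share 5% or more of its 50-base words (open squares). Of the 14 squares, 5 lie left of the dashed line at 4, and those of Zc3h11a and Gm15832 lie left of 1.

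As a group the 15 genes were scattered over 9 chromosomes, 13 of them were annotated as protein-coding, and none lay within 100 kb of another. Of their 48 neighbours within 100 kb at 5 CPM or more, 7 were above both Abl1ko/IL3+ libraries and 10 below. The neighbours include gene models that overlap a member's own exons, such as Gm38394 and Gm42878 (below) and Nphs1 (above). These counts are thus not of separate genes only. Over the 13970 genes at the lower cut of 1 CPM in a library, 20.4% were above and 16.3% below. Rps12-ps4 alone had 5 of the 7 neighbours above, and Cabp1 had 4 of the 10 below. The Abl1ko/IL3- replicates of the members differed by a median of 1.30-fold, against 1.20-fold over all 9821 genes at the floor, and by less than 1.5-fold in 13 of 15, the others being Gm45837 (1.53-fold) and Slc7a11. The Abl1ko/IL3+ replicates differed by a median of 1.70-fold over the 13 members with counts in both, against 1.62-fold over the 12800 genes with 0.5 CPM or more in both, and by more than 2-fold in 6 of them. Compared per length in FPKM, a unit scaled for both gene length and library depth, Rps12-ps4 was the most abundant without IL-3 at 418 and 281 FPKM, a value that its copies share in. Ak4 (21.3 and 29.7 FPKM), Zc3h11a (20.6 and 15.3 FPKM), Il1f9 (12.5 and 16.4 FPKM) and Nanp (12.1 FPKM in both) came next. Ak4 was above Zc3h11a in both replicates, while Zc3h11a and Il1f9 changed places between replicates, so the order of the latter pair is not set by these data. Creb1 (2.68 and 2.80 FPKM), Adam1a (1.77 and 2.50 FPKM) and Cabp1 (0.778 and 0.841 FPKM) were among the lowest.

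The members nearest to the limit were Foxp1, Zfp239 and Cabp1, at ratios of 5.09, 4.74 and 4.51. Just outside it were Igsf6 (3.96), Pilrb2 (3.70) and Lyz2 (3.70), which encodes lysozyme and had 15.8 and 19.8 CPM with IL-3 against 73.3 and 510 CPM without it. The set rests on all 4 libraries: with 1 library left out, 169 genes met the rule without Abl1ko/IL3+ replicate 1, 78 without Abl1ko/IL3+ replicate 2, 73 without Abl1ko/IL3- replicate 1 and 51 without Abl1ko/IL3- replicate 2. Across all genes, the quasi-likelihood test of edgeR, with p-values adjusted by Benjamini-Hochberg, called 0 of 16535 genes (0%) at 0.05, while 978 had an unadjusted p under 0.05. DESeq2 called 111 of the same genes higher without IL-3 (0.671%), and all 15 members were among them, a contrast that the rule had already used.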

How the data were processed

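Ribosome-depleted RNA was sequenced from 4 libraries, 2 of Abl1ko/IL3+ and 2 of Abl1ko/IL3- cells. The authors deposited raw counts per gene and FPKM values. Their methods name Rsubread alignment to GRCm38 and featureCounts, whereas the submitters' processing notes list STAR, Cuffdiff and mm10, so which tool made which column is unresolved. Multi-read and strand settings are not given in the sources used here. The rule was applied to CPM computed from the deposited counts, with a floor of 5 CPM, a ratio of 4 and 0.05 CPM added. Members and gene lists were chosen with earlier results of these data known, and the pathway companion lists after the members were known. All members are named except 1, which is not reported here. Shared words of 50 bases came from GENCODE M21 transcripts. Replicates were separate libraries by their counts (chi-square per degree of freedom 712 and 271). The count model was edgeR 4.0.16 (filterByExpr, TMM, two-sided) in R 4.3.3, with DESeq2 1.42.0 as an alternative. On simulated data, edgeR recovered 200 of 200 genes changed 4-fold among 16147, with 4 false calls. DESeq2 recovered the same 200 with 14 false calls. The simulated counts had a fixed spread between replicates that was not taken from these libraries. The recovery therefore checks the code and does not show what either tool could detect here. Deviations from the group mean had a correlation of -0.216 between libraries of the same replicate number. With 2 libraries per group, the crossed pairs have the same value with the opposite sign by construction, so it cannot decide on pairing. No pairing was used, because nothing in the labels says that replicate numbers mark a shared clone or day. Other alternatives were scaling, floor, ratio, added CPM, FPKM, filters, the replicate block and leaving out each library, and sums over sequence-sharing genes and the crossed pairing were added after seeing the data.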

Additional observations from a re-analysis of the deposited data

How the results depend on the processing

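The number of genes meeting the rule was 31 with a floor of 2 CPM, 30 with a ratio of 3, 4 with a ratio of 8 and 9 with the authors' FPKM in place of CPM, which also divides by gene length. Leaving out a library, which can only raise a ratio, gave 51 to 169 genes and a median member ratio of 7.13 to 8.64 instead of 6.06. TMM and DESeq2 size factors each gave 18 genes. All 15 members met the rule with either scaling, 13 with a floor of 10 CPM, 12 with 1 CPM added and 8 with FPKM. With edgeR, 0 genes were called under the replicate block or the crossed pairing, and from 0 to 22 with 1 library left out, the 22 being without Abl1ko/IL3- replicate 1 and 1 without Abl1ko/IL3- replicate 2. These fits take the spread from the group with 2 libraries and assume that the lone library varies alike, so the calls say nothing firm about the condition. DESeq2 called 271 genes, and 194 with the replicate block, and the cause of the gap to edgeR was not tested. With 2 libraries per group, levels near the 3-count floor have no firm ratio.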
